A study of Homo sapiens with 6 samples.

Results

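The MYC gene, the neighbouring PVT1 gene and the far downstream enhancers of MYC were examined in ATAC-seq peak lists of K562 cells, an established human leukaemia line. ATAC-seq uses a transposase that inserts sequencing adapters into open DNA, so that a peak marks accessible chromatin. All intervals between 128700000 and 130800000 on chromosome 8 (hg19) were taken, a window of 2.1 Mb. It holds the MYC start at 128748315, the PVT1 gene from 128806779 to 129113499 and a distal span from 130500000 to 130800000. After overlapping intervals of the 6 lists were merged, 26 of 17466 regions lay in this window.

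The series asked how SLFN11, a Schlafen-family protein that acts at stressed replication forks, affects chromatin under replication stress. Every group was K562, modified to carry a vector control, overexpressed wild-type SLFN11 or overexpressed SLFN11 with the E669Q substitution, which lies in its ATPase domain. Each line was treated with DMSO, the solvent, for a time not given in the labels, or with 1000 nM camptothecin (CPT) for 4 h. CPT traps topoisomerase I on DNA and so stalls replication. Each of the 6 groups is 1 library, so no difference below has a replicate check. Neither the promoter that drove SLFN11 nor whether a line was 1 clone is given in the sources used here. The labels call the cells lymphoblasts. Marker genes of the cell type were not tested, because no hg19 annotation was used.

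MYC encodes a transcription factor that drives genes of growth, ribosome production and metabolism, and it counts among the genes switched on early after stimulation. PVT1 is a long non-coding RNA gene downstream of MYC, whose body holds enhancers and whose own promoter can compete with MYC for them. Work in K562 with CRISPR interference has found enhancers of MYC both inside PVT1 and far beyond it. In the RefSeq table for GRCh38.p14 the last genes in this stretch are the non-coding gene CCDC26, the microRNA gene MIR3686 and GSDMC, a gasdermin gene. No coordinates were taken from that build.

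Relative to vector with DMSO, the shallowest library, recovered depth was 1.09 in both CPT libraries of the vector and wild-type SLFN11 lines. The value was 1.72 in wild-type SLFN11 with DMSO, 1.33 in E669Q with DMSO and 2.22 in E669Q with CPT. Lists held 5246 to 12337 distinct intervals. Sites are named here by the distance of their centre from the MYC start, so that +309 kb lies 309 kb downstream. Fold enrichment is the authors' ratio of summit signal over local background, with a pseudocount of 1 added to each by the peak caller's formula. It therefore also depends on depth, and folds of libraries of unlike depth are not directly comparable. The authors' measure of confidence is −log10 q, with lists ending near 2.

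The MYC promoter was called in 2 of 6 libraries, and weakly in both. The region chr8:128748196-128748403 spans the MYC start. Its fold was 5.30 in vector with CPT (−log10 q 3.79) and 4.18 in the wild-type SLFN11 library with DMSO (−log10 q 3.06). By −log10 p, these values exceeded 28.3% and 11.7% of the intervals of their own lists. The vector library with CPT also held a small interval just upstream, chr8:128746336-128746463, with a fold of 4.26. The other 4 libraries had no interval within 2 kb of the MYC start.

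The depth of each library limits what a missing promoter call shows. Fold and −log10 p together give back the number of fragments stacked at a summit, the pileup, which was 9 in CPT-treated vector cells and 11 in wild-type SLFN11 with DMSO. Divided by relative depth these were 8.28 (exact Poisson 95% interval 3.78 to 15.7) and 6.39 (3.19 to 11.4). The largest depth-scaled pileup that would have gone uncalled, at the local background scaled from the calling libraries, was 7 in vector with DMSO and 6.42 in wild-type SLFN11 with CPT. It was 5.99 in E669Q with DMSO and 4.50 in E669Q with CPT. All 4 limits lay within both intervals. At the levels of the calling libraries, 6.39 to 8.28 fragments were expected in vector with DMSO and 6.97 to 9.03 in wild-type SLFN11 with CPT. Both ranges reach from below to above their limit of 7, so the missing calls there do not show a lower promoter level. In E669Q the expected 8.53 to 11.05 with DMSO and 14.2 to 18.4 with CPT lay above the limits of 8 and 10, but the counting error of the calling libraries covers these limits. Poisson intervals here cover counting error alone and treat the counts as independent fragments. Fewer cells with an open promoter and less signal per cell cannot be told apart in these bulk samples.

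**Figure D1:**
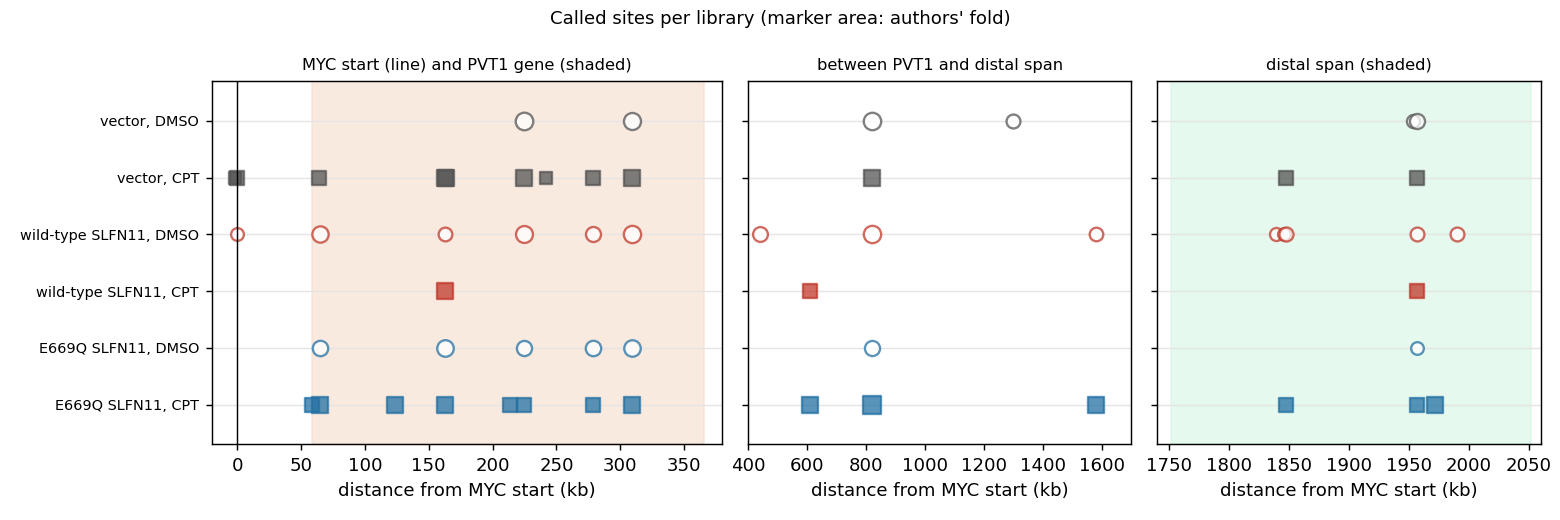
Sites called in each of the 6 libraries (rows) by distance from the MYC start in kb, in 3 panels with different scales; open circles are DMSO, filled squares CPT, and the marker area follows the authors' fold. Wild-type SLFN11 with CPT holds 3 sites in the window, and the site at +1957 kb is the one called in every row.

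PVT1 and the distal span held many open sites for their length. In the PVT1 gene body 11 regions were found, or 35.9 per Mb (exact Poisson 95% interval 17.9 to 64.2), against 5.41 per Mb on all of chromosome 8 and 5.65 over all chromosomes but M. The distal span held 8 regions, or 26.7 per Mb (11.5 to 52.5). The stretch between them held 5, or 3.61 per Mb (1.17 to 8.42), which does not differ from the chromosome beyond its interval. Both spans were chosen as known enhancer territory with earlier results of these data in view, so their density is a description.

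Inside PVT1, the site at +309 kb, chr8:129057077-129057505, was called in 5 of 6 libraries. Its fold was 7.44 in vector with DMSO, 7.13 in CPT-treated vector cells, 7.64 in wild-type SLFN11 with DMSO, 6.94 in E669Q with DMSO and 6.19 in E669Q with CPT. Its −log10 q ran from 7.14 to 10.9 in these 5 libraries, and wild-type SLFN11 with CPT had no interval there. The summits of the 5 libraries lay within 74 bp of each other. It was the one site of the window with −log10 q of at least 5 in 5 libraries.

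The site at +224.4 kb, chr8:128972413-128972932, was called in the same 5 libraries. Its fold was 7.90 in vector with DMSO, 6.43 in CPT-treated vector cells, 7.32 in wild-type SLFN11 with DMSO, 5.86 in E669Q with DMSO and 4.75 in E669Q with CPT. Both CPT libraries with a call were thus below the DMSO library of their line. Their −log10 q was 5.41 in vector with CPT and 3.41 in E669Q with CPT, against 8.19 and 4.95 with DMSO, and it was 9.18 in wild-type SLFN11 with DMSO. The wild-type SLFN11 interval held a pair of summits.

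The site at +162.8 kb, chr8:128910819-128911472, was the one PVT1 site called in wild-type SLFN11 with CPT. Its fold was 5.96 there and 4.79 in wild-type SLFN11 with DMSO. It was 5.78 in vector with CPT, 7.01 in E669Q with DMSO and 6.002 in E669Q with CPT, and vector with DMSO had no call. Vector with CPT had a second interval just downstream, at +163.4 kb, with the same fold of 5.78.

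A weaker pair of PVT1 sites completed the set found in at least 2 libraries. At +278.5 kb (chr8:129026614-129027081) the fold was 5.26 in CPT-treated vector cells, 5.74 in wild-type SLFN11 with DMSO, 6.08 in E669Q with DMSO and 4.91 in E669Q with CPT. At +64.9 kb (chr8:128813045-128813330), close behind the PVT1 start, the fold was 6.79 in wild-type SLFN11 with DMSO, 6.08 in E669Q with DMSO and 6.38 in E669Q with CPT. Vector with CPT had an interval beside the latter, at +64.5 kb, with a fold of 4.51 and no overlapping base. Joining regions up to 150 bp apart merges such neighbours and leaves 23 regions in the window.

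The PVT1 start itself was called once, in E669Q with CPT, by an interval of fold 4.53 and −log10 q 2.72 (chr8:128806728-128806832). The PVT1 body held 5 other regions seen in 1 library: those at +64.5, +163.4 and +241.8 kb in vector with CPT, and those at +123.9 and +213.8 kb in E669Q with CPT. The one at +123.9 kb had a fold of 6.51 and a −log10 q of 6.14, above the other single-library regions of PVT1.

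**Figure D2:**
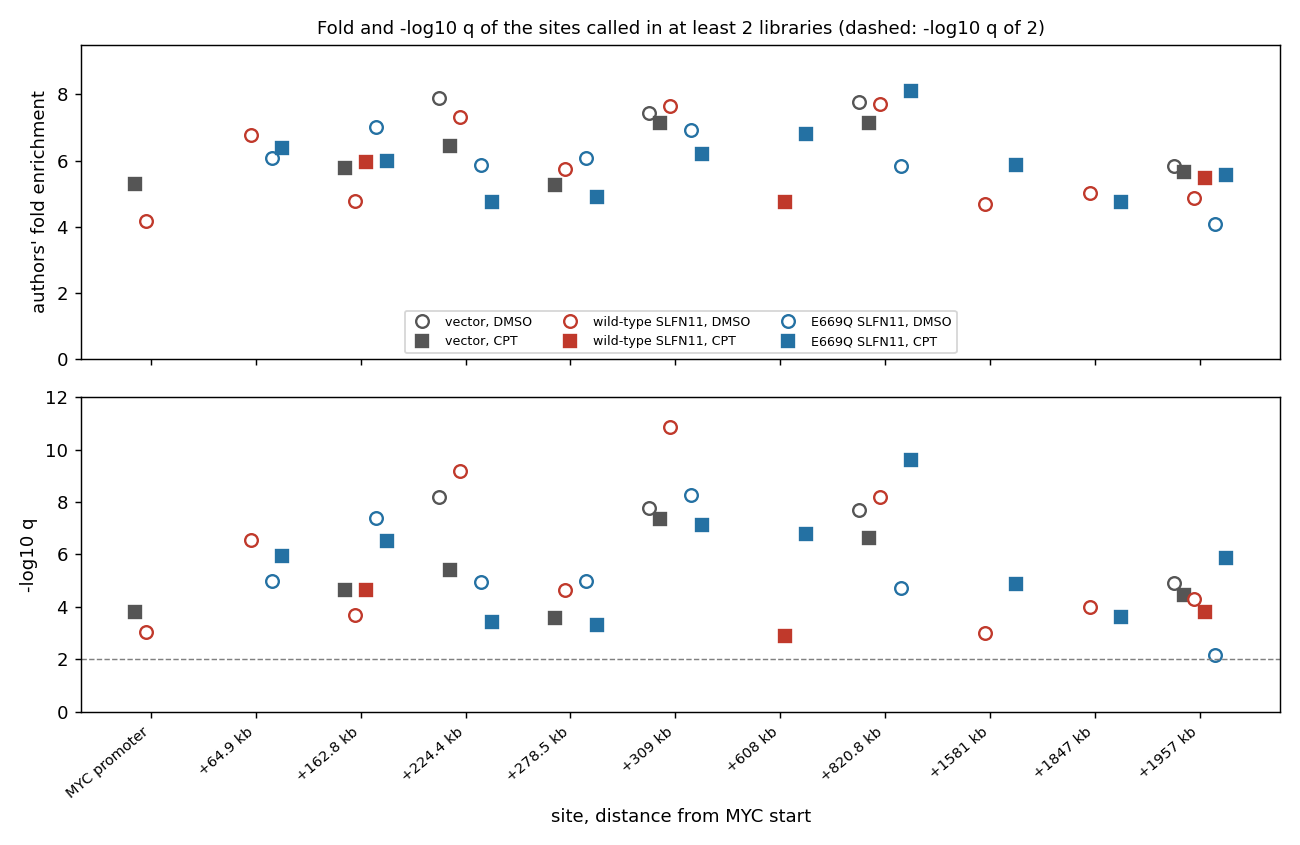
Authors' fold (top) and −log10 q (bottom) at the 11 sites called in at least 2 libraries; each point is 1 library, open circles DMSO and filled squares CPT. Sites at +224.4, +309 and +820.8 kb reach a −log10 q above 8 in at least 1 library, and the MYC promoter stays under 4.

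In the distal span, the site at +1957 kb, chr8:130704699-130705440, was the one region of the window found in all 6 libraries. Over the whole series 12.3% of regions were found in all 6. Its fold was 5.82 in vector with DMSO, 5.65 in CPT-treated vector cells, 4.88 in wild-type SLFN11 with DMSO, 5.47 in wild-type SLFN11 with CPT, 4.09 in E669Q with DMSO and 5.57 in E669Q with CPT. DMSO and CPT values overlapped. At 742 bp it was the widest region of the window, and vector with CPT and E669Q with CPT each held a pair of intervals in it. Its confidence was moderate, with −log10 q from 2.19 in E669Q with DMSO to 5.89 in E669Q with CPT.

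A second distal site, at +1847 kb (chr8:130595400-130595739), was called in wild-type SLFN11 with DMSO (fold 5.03) and in E669Q with CPT (4.74), the deepest libraries. Vector with CPT had a separate interval beginning 14 bp past its end, with a fold of 5.20. The other 5 distal regions were each seen in 1 library. They lay at +1839, +1846 and +1991 kb in wild-type SLFN11 with DMSO, at +1954 kb in vector with DMSO and at +1972 kb in E669Q with CPT. Their fold ran from 4.17 at +1846 kb to 6.51 at +1972 kb.

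Between PVT1 and the distal span, the site at +820.8 kb (chr8:129568900-129569302) was called in 5 libraries. It falls outside the rule for named sites and was picked after its values were seen. Its fold was 7.77 in vector with DMSO, 7.15 in CPT-treated vector cells, 7.70 in wild-type SLFN11 with DMSO, 5.84 in E669Q with DMSO and 8.10 in E669Q with CPT, the highest fold of the window. Wild-type SLFN11 with CPT had no interval there. The 4 remaining regions of this stretch, at +441.1, +608, +1297 and +1581 kb, were called in 1 or 2 libraries.

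Of the 26 regions, 15 (57.7%) were seen in 1 library and 5 (19.2%) in 5 or 6, against 38.1% and 22.4% over all regions. The 15 had a median fold of 4.53 and a median −log10 q of 2.72. The 41 values of the sites in at least 2 libraries had medians of 5.86 and 4.95. None of the sites was among the strongest of its library: the highest fold in the window, 8.10, is under the 95th percentile of its list (9.55).

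Wild-type SLFN11 with CPT held the fewest sites of the window. It held 3 intervals, in PVT1, between PVT1 and the distal span, and in the distal span. Vector with DMSO held 6, vector with CPT 13, and the DMSO library of wild-type SLFN11 14, E669Q with DMSO 7 and E669Q with CPT 16. As shares of the lists these were 0.0539% (exact Clopper-Pearson 95% interval 0.0111 to 0.158) for wild-type SLFN11 with CPT and 0.120% (0.0657 to 0.202) with DMSO. They were 0.114% (0.0420 to 0.249) and 0.224% (0.119 to 0.383) in the vector line with DMSO and CPT. In the E669Q line they were 0.0837% (0.0337 to 0.172) and 0.130% (0.0741 to 0.211).

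The change with CPT went down in the wild-type SLFN11 line and up in the other lines, each within counting error. It was −0.0662 percentage points in the wild-type SLFN11 line (Newcombe 95% interval −0.155 to 0.0490), 0.110 in the vector line (−0.0544 to 0.280) and 0.0460 in the E669Q line (−0.0560 to 0.138). An exact two-sided sign-flip permutation test over the 3 lines gave p = 0.75, where 0.25 is the smallest p possible. Depth moved the same way, to 0.634 times in the wild-type SLFN11 line, 1.09 times in the vector line and 1.66 times in the E669Q line, and its part in the result was not tested. In lists cut to their 5246 strongest intervals by −log10 p, the window held 6 intervals with DMSO and 10 with CPT in the vector line, 4 and 3 in the wild-type SLFN11 line, and 6 and 3 in the E669Q line. The E669Q change was then −0.0572 points, opposite to that of the full lists.

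Vector and wild-type SLFN11 with CPT were at equal depth (ratio 1.00). There the share was lower by 0.170 points in wild-type SLFN11 (difference −0.170, interval −0.333 to −0.0300), a difference between these libraries and not between the conditions. This comparison was not planned and sets the lowest share of all libraries against the highest, so its interval is descriptive. The interval also treats separate pieces of the same site as independent. It rests largely on weak calls: with −log10 q of at least 5 the window held 3 intervals in vector with CPT and 0 in wild-type SLFN11 with CPT.

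**Figure D3:**
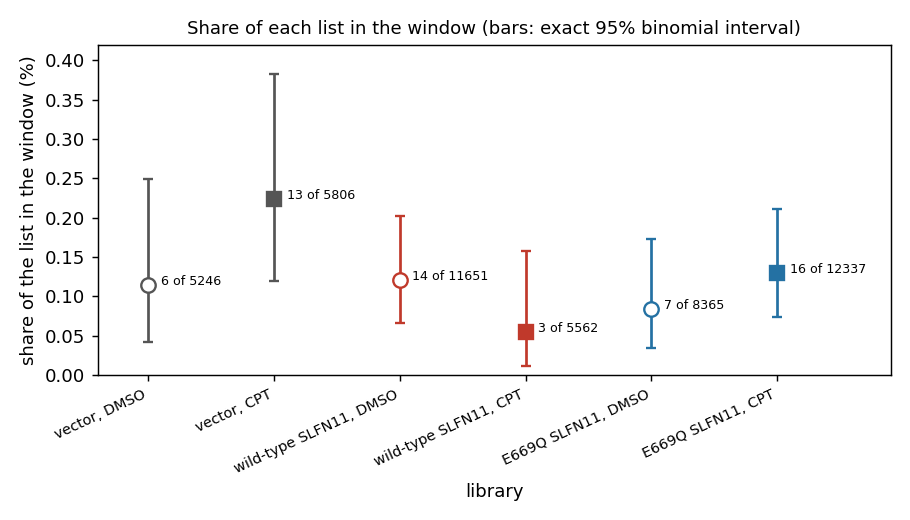
Share of each library's intervals that lie in the window (percent; bars are exact 95% binomial intervals; counts beside the points; open circles DMSO, filled squares CPT). Wild-type SLFN11 with CPT is lowest with 3 of 5562 and vector with CPT highest with 13 of 5806.

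The intervals found again with CPT were then counted in each line, so separate intervals of the same site count apart. In the wild-type SLFN11 line 12 of 14 DMSO intervals had no counterpart with CPT, or 85.7% (exact 95% interval 57.2 to 98.2), where 59.5% of all DMSO intervals had none. The MYC promoter was among the 12, and +162.8 and +1957 kb were the 2 found again. Of the 3 CPT intervals 1 was gained, at +608 kb with a fold of 4.74, against 15.1% over the list. The background of 59.5% lies inside the interval of the window.

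In the E669Q line all 7 DMSO intervals were found again with CPT. None was lost, with an upper bound of 41.0%, against 19% lost over the list, and 9 of 16 CPT intervals were gained against 45.2%. In the vector line 2 of 6 were lost against 39.5%, and 9 of 13 were gained against 45.1%, the MYC promoter and +162.8 kb among them. At +1957 kb, a site called in every library, vector with CPT and E669Q with CPT each held 2 intervals. A piece of that site is among the gained intervals of each of these lines. E669Q with CPT also held 2 intervals at +1581 kb, both gained. Both shares of the vector line and those of the E669Q line are within the counting error of their backgrounds. In lists cut to equal length, none of the 4 DMSO intervals of the wild-type SLFN11 line had a counterpart with CPT, and 4 of 6 in the E669Q line had none. Shares over the whole cut lists are not given here, so these last counts have no background beside them.

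The count was repeated with depth taken into account, a check chosen after seeing the data. Of the 14 DMSO intervals, 6 had a pileup that would pass at the depth of the CPT library, and 0 of these 6 were found (exact 95% upper bound 45.9%). Over the list 49.2% of such intervals were not found, and 50.8% were. The 2 sites that were found again, +162.8 and +1957 kb, are among the 8 intervals left out by this step, and over all 14 the share lies within the counting error of its background. Of the intervals of E669Q with CPT, 4 would pass at the depth of wild-type SLFN11 with CPT and 1 was found there (exact 95% interval 0.631 to 80.6%), where 59.9% of such intervals over the list were found and 40.1% were not. At equal depth, 2 of 13 intervals of vector with CPT had a counterpart in wild-type SLFN11 with CPT, and 11 of 13 (84.6%, 54.6 to 98.1) did not, against 44.8% over the list. Among the 11 are the stronger of the 2 vector intervals at +1957 kb, a site both libraries called, and +163.4 kb, beside the shared site at +162.8 kb. In the reverse direction 1 of 3 was absent, against 42.5%. These intervals treat neighbouring sites as independent, and compare single libraries. Vector and wild-type SLFN11 with CPT also hold the highest and lowest shares of the window, so their comparison sets extremes against each other.

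The sites at +224.4, +309 and +820.8 kb were called in every library but wild-type SLFN11 with CPT. Over all chromosomes 527 regions were absent from that library alone, 13.5% of the 3908 found in at least 5 libraries. Absent from vector with DMSO alone were 634 (16.2%), among them +162.8 kb. At +309 kb the pileup was 13 in vector with DMSO, 13 in CPT-treated vector cells, 19 in wild-type SLFN11 with DMSO, 16 in E669Q with DMSO and 15 in E669Q with CPT. Per relative depth these were 13, 12.0, 11.03, 12.0 and 6.76. A depth-scaled pileup of up to 6.42 would have gone uncalled in wild-type SLFN11 with CPT, below the interval of wild-type SLFN11 with DMSO (6.64 to 17.2).

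At +224.4 kb the limit in that library was 5.50 per depth, against 9.29 (5.31 to 15.1) in wild-type SLFN11 with DMSO and 8.28 in vector with CPT. At +820.8 kb it was 4.58, against 6.39 (3.19 to 11.4) and 8.28. Both limits lie inside the intervals of wild-type SLFN11 with DMSO. A pileup of 7, the unscaled limit at +309 kb, itself has an exact Poisson interval of 2.81 to 14.4. A fall at any 1 of these sites was thus not shown beyond counting error. An interval narrower than the peak caller's minimum can also go unlisted, and no interval of that list was narrower than 128 bp.

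**Figure D4:**
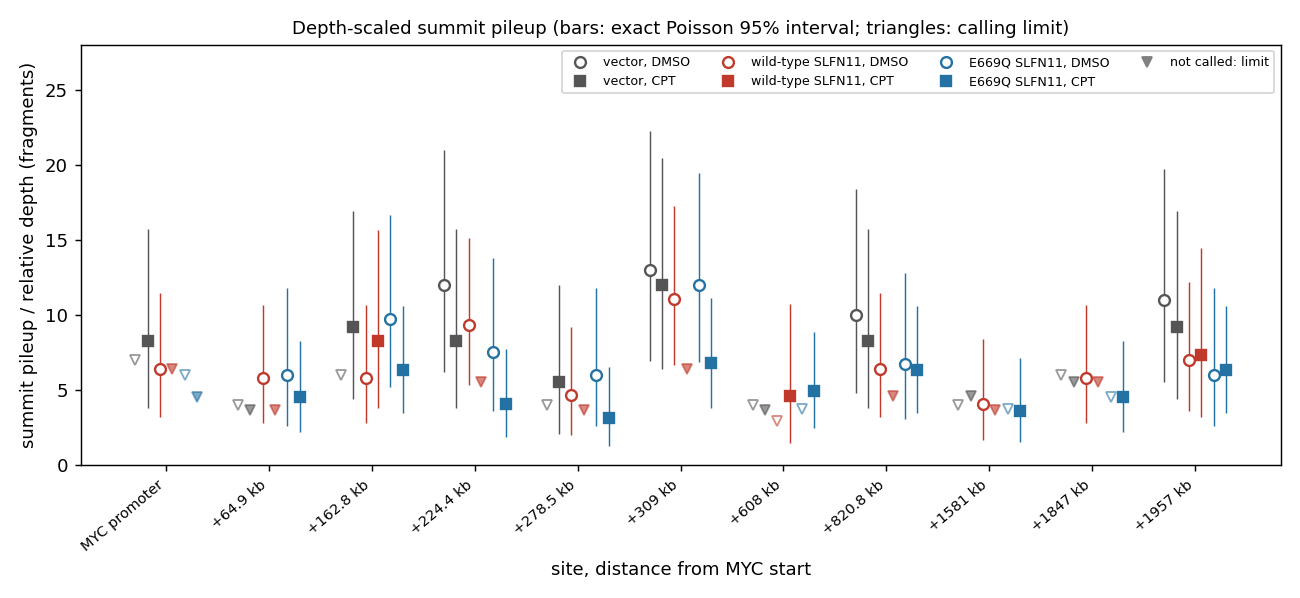
Summit pileup divided by relative depth (fragments) at the 11 sites called in at least 2 libraries; bars are exact Poisson 95% intervals and triangles mark, for a library with no call, the largest depth-scaled pileup that would go uncalled. At +309 kb the triangle of wild-type SLFN11 with CPT (6.42) lies under the points of the other 5 libraries (6.76 to 13).

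Where a site was called at both treatments of a line, no summit changed beyond counting error. There were 13 ratios of CPT over DMSO, per relative depth, and every exact 95% interval included 1. Each ratio set the strongest summit of the merged site with CPT against the strongest with DMSO. In the E669Q line 6 of 7 ratios were under 1, from 0.526 at +278.5 kb to 1.05 at +1957 kb, where 70.3% of all regions called in both libraries were. In the vector line 4 of 4 were, from 0.690 at +224.4 kb to 0.920 at +309 kb, against 52.4%. In the wild-type SLFN11 line they were 1.42 (0.511 to 3.89) at +162.8 kb and 1.05 (0.373 to 2.80) at +1957 kb, where 51.6% of all regions were under 1. Scaled by the median pileup of shared regions, 5 of 7 and 3 of 4 were under 1 in the E669Q and vector lines, with +820.8 kb at 1.09 in E669Q and +309 kb at 1 in vector. A site enters only if it was called in both libraries, which leaves out those that went below the limit. Sites of the same line share their libraries and are not replicates of the treatment.

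At the +1957 kb site the pileup was 11 and 10 in the vector line, 12 and 8 in the wild-type SLFN11 line and 8 and 14 in the E669Q line, with DMSO and CPT. Per depth the CPT over DMSO ratios were 0.836 (0.318 to 2.17), 1.05 and 1.05 (0.412 to 2.89). In the vector line the strongest summits lay in intervals that do not overlap, chr8:130705222-130705440 with DMSO and chr8:130704712-130705065 with CPT. That ratio thus compares different peaks of the merged region. The mean log2 ratio over the 3 lines was −0.037 (exact two-sided sign-flip permutation p = 1, smallest possible 0.25). Over the regions found in all 6 libraries the median ratios were 0.985, 0.877 and 0.874. The site lay at the 30.5th, 68.4th and 73.3rd percentile of these.

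The wider chromatin around the sites was read from the peak caller's local background in the 10 kb around a summit, the peak included. This measure was added after seeing the data. Its smallest step was taken as 1 fragment. If a step is instead 1 read end, the counting intervals given for this density and its ratios are too narrow. Around the MYC promoter the density was 3.64 times the genome background (exact Poisson 95% interval 2.97 to 4.42) in CPT-treated vector cells and 4.69 times (4.08 to 5.38) in wild-type SLFN11 with DMSO. The median over all intervals of a list was 2.06 to 2.56 times. Around +309 kb it was 3.25 to 4.92 times, and around +162.8 kb 2.92 to 3.72 times. Around +820.8 kb it was 1.40 to 2.42 times, below the other sites of 5 or 6 libraries in each library that called it.

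With CPT this density was lower than with DMSO at each of the 13 pairs, each pair being a site called at both treatments of 1 line. Sites without a call at either treatment are left out. The pairs of a line are sites of the same window read in the same libraries, so they are not replicates of the treatment. All 7 E669Q ratios were under 1, where 49.7% of the regions called in both libraries were. In the vector line 4 of 4 were, against 56.6%, and in the wild-type SLFN11 line 2 of 2, against 61.7%. The E669Q ratios were 0.662 (exact 95% interval 0.534 to 0.820) at +309 kb, 0.724 (0.536 to 0.981) at +820.8 kb and 0.766 (0.587 to 1.003) at +224.4 kb. Their percentiles among all regions of that pair were 2.63, 6.18 and 9.86. The other 4 E669Q ratios ran from 0.794 to 0.912, with intervals that included 1.

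At +1957 kb the 10 kb density was 4.86 times the genome background in vector with DMSO and 3.89 with CPT, 4.17 and 2.78 in the wild-type SLFN11 line and 4.07 and 3.48 in the E669Q line. Every CPT value was below every DMSO value. The CPT over DMSO ratios were 0.802 (0.614 to 1.05), 0.666 (0.504 to 0.872) and 0.854 (0.685 to 1.07), at the 22.3rd, 12.0th and 22.2nd percentile of their pairs. The exact two-sided sign-flip permutation test over the 3 lines gave p = 0.25, the smallest it can give. With CPT at equal depth, the ratio of wild-type SLFN11 to vector was 0.713 (0.526 to 0.963) here and 0.786 (0.581 to 1.06) at +162.8 kb, where 40.4% of regions were under 1.

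**Figure D5:**
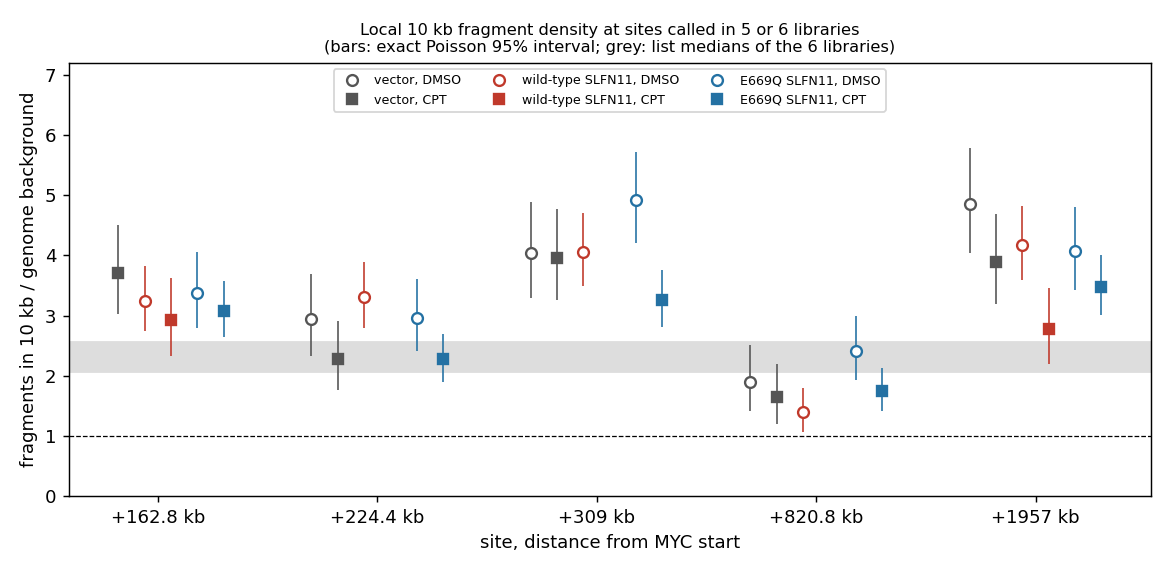
Fragments in the 10 kb around the summit over the genome background at the 5 sites called in 5 or 6 libraries (bars: exact Poisson 95% intervals; open circles DMSO, filled squares CPT; grey band: list medians of 2.06 to 2.56; dashed line: genome background). At +1957 kb the 3 CPT points (2.78 to 3.89) lie below the 3 DMSO points (4.07 to 4.86). The bars of vector with CPT and E669Q with DMSO overlap there.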

How the data were processed

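Per the submitters' processing notes, the build was hg19 and the tools included MACS2 2.1.2, Bowtie2 2.2.6, Trimmomatic 0.39, Picard 2.9.2 and SAMtools 1.8, with roles and settings not given in the sources used here, nor transposase shift or duplicate handling. The deposited file of each library is a peak list of its own. Each entry carries the authors' fold enrichment, a ratio over local background, and its p-value and q-value on the −log10 scale. In all 55747 entries the deposited score equalled 10 times the −log10 q-value, rounded down, and it was not used further.

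Intervals were compared by 1 bp of overlap, with the summit of highest −log10 p standing for each. Pileups and local backgrounds were solved from fold and −log10 p with MACS2's formulas (pseudocount 1), taking whole pileups that matched −log10 p within 0.001, which succeeded for 98.6% to 99.2% of entries per list. Background values rose in steps of 1 fragment per 10 kb, and the lowest background over that step gave relative depth. The solving step was tested on simulated data made with the same formulas.

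Named sites are the MYC promoter region and the PVT1 and distal regions called in at least 2 libraries, plus other regions called in all 6. The members, sites and lists were chosen with earlier results of these data known. Planned lists of MYC network, enhancer regulator and cell type marker genes need hg19 gene positions and were not analysed here. Calculations used scipy 1.17.1, numpy 2.4.6 and pandas 2.3.3 in Python 3.11.15, and figures matplotlib 3.10.9.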

Additional observations from a re-analysis of the deposited data

Results flagged for a closer look

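The share of the list that lies in the window moved in opposite directions with CPT. It fell by 0.0662 percentage points in the wild-type SLFN11 line and rose by 0.110 points in the vector line and by 0.0460 points in the E669Q line. The direction differs between lines, each with 1 library per treatment, and the difference was not tested. Depth moved to 0.634, 1.09 and 1.66 times in the same order, and its part in the result was not tested.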

How the results depend on the processing

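Of 57 alternative values, 31 stayed within the limits set for them, 22 moved and 4 changed sign. With −log10 q of at least 5, the window held 3 intervals in vector with DMSO, 3 in CPT-treated vector cells, 4 in wild-type SLFN11 with DMSO, 0 in wild-type SLFN11 with CPT, 2 in E669Q with DMSO and 9 in E669Q with CPT. In lists of matched length (5246 intervals), wild-type SLFN11 with DMSO held 4 and E669Q with CPT 3. Among intervals wider than 150 bp, wild-type SLFN11 with CPT held 1.

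The rise in share reversed in the vector line at −log10 q of at least 5 (−0.0167 points) and in the E669Q line at matched length (−0.0572 points). At −log10 q of at least 5, 0 intervals were gained and 0 lost in the vector line, and 0 gained and 4 lost in the wild-type SLFN11 line. The counts of the wild-type SLFN11 line were fixed by the cut, because its CPT library held 0 intervals of the window at that limit. Lists of equal length gave 3 gained and 4 lost in the wild-type SLFN11 line, and 1 gained and 4 lost in the E669Q line. Shares gained and lost over the whole lists at these settings are not given here, so the counts cannot be read as particular to the window. In the full lists, 1 was lost in the E669Q line if 50% of the interval had to be covered. The cause of these shifts was not tested, beyond the shorter lists. The mean log2 ratio at +1957 kb was 0.144 when scaled by the median pileup of shared regions, and 0.073 without the vector line. At −log10 q of at least 5, regions per Mb were 0 around the MYC start, 16.3 in PVT1, 1.44 between the spans and 10.0 in the distal span. The density over the chromosome at that limit is not given here.

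Replicates could not be paired by number, because each group is 1 library. The sign-flip tests pair the treatments within each of the 3 lines. Summit pileups of 5 to 19 fragments limit every comparison of single sites.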
